A study of Bos taurus with 4 samples.

Results

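The basement membrane genes described here are 10 genes for the core chains and linkers of the sheet of matrix that surrounds fat cells, muscle fibres and vessels: COL4A1, COL4A2, COL18A1, LAMA2, LAMA4, LAMB1, LAMC1, NID1, NID2 and HSPG2. They were found by their symbols among the 21861 genes of the count tables, and all 10 were present in every table. They were measured by single-nucleus RNA sequencing (10x Genomics 3' chemistry, which counts unique molecular identifiers, UMIs, in RNA from single nuclei) of fat from 2 cattle (Bos taurus). Each animal gave 1 library of intramuscular fat, the marbling fat inside skeletal muscle, and 1 library of subcutaneous backfat, so each depot has 2 libraries. The labels describe the animals as untreated and raised in a commercial feedlot, with diet, age and breed unknown. No label gives a deletion, transgene or agent in any group, and nothing says that tissue of several animals was pooled.

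A basement membrane is built from laminin and collagen IV networks. A laminin is a trimer of 1 alpha, 1 beta and 1 gamma chain. The alpha chain (LAMA2 or LAMA4) sets which receptors it binds, and LAMB1 and LAMC1 are a beta and a gamma chain found with either. Collagen IV protomers of the common type hold COL4A1 and COL4A2 chains. Nidogens (NID1, NID2) and perlecan (HSPG2, a large heparan sulfate proteoglycan) link these networks. COL18A1 encodes collagen XVIII, which carries heparan sulfate and releases endostatin from its end. In fat, each mature adipocyte lies in its own basement membrane. LAMA4 is known from mice and humans as the alpha chain of vessel and adipocyte membranes, and LAMA2 as that of skeletal muscle fibres, where its loss causes a muscular dystrophy.

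The libraries differed in size and content. After removal of nuclei with under 200 detected genes or 10% or more mitochondrial UMIs, the intramuscular libraries of animals 1 and 2 held 1774 and 63 nuclei, and the subcutaneous libraries 874 and 6126. Their total UMIs were 2717458 and 105481 in the intramuscular libraries, against 1138601 and 4006966 in the subcutaneous ones. Muscle fibre marker genes made up 0.00405% and 0.0123% of UMIs in the libraries labelled intramuscular, against 5.16% and 20.0% in those labelled subcutaneous, so muscle RNA stood in the libraries where the label would not place it. Every depot direction below therefore rests on the labels as given. At most 2 cell barcodes were shared between any pair of libraries.

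Nuclei were sorted by marker genes, none of which is a basement membrane gene of the 10, into adipocyte-like, endothelial-like, pericyte-like, fibre-like and progenitor-like nuclei (the last marked by fibroblast and adipocyte progenitor genes such as PDGFRA and DCN). A type was used in a library where it had at least 10 nuclei. Levels are given as CPM, the UMIs of a gene for every 1000000 UMIs of the summed nuclei. Adipocyte-like nuclei numbered 271 and 30 in the intramuscular libraries and 53 and 43 in the subcutaneous ones. Endothelial-like nuclei numbered 166 in the intramuscular library of animal 1 and 110 and 142 in the subcutaneous libraries, and progenitor-like nuclei 246 against 151 and 157. Pericyte-like nuclei numbered 31 in that intramuscular library and 12 and 31 in the subcutaneous ones. Fibre-like nuclei were found in numbers in the subcutaneous libraries alone, with 198 and 5175. This left 15 sums of UMIs over library and type, and the intramuscular library of animal 2 entered with adipocyte-like nuclei only.

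The types were checked on marker genes that the sorting did not use. The held-out markers summed highest in their own type in 12 of 14 checks. The held-out adipocyte list was higher in endothelial-like than in adipocyte-like nuclei of the intramuscular library of animal 1 (22543 against 16727 CPM), and the held-out pericyte list was higher in progenitor-like than in pericyte-like nuclei of the subcutaneous library of animal 2 (377 against 276). Nuclei with markers of more than 1 type were set aside as mixed, and the share of a gene's UMIs that they held ran from 27.2% to 41.9% over the 10 genes in the intramuscular library of animal 1 and 25% to 100% in that of animal 2, and from 17.0% to 59.6% in the subcutaneous library of animal 1 and 12.6% to 44.2% in that of animal 2. Fibre markers also reached other types: they made 6.84% to 13.6% of UMIs in adipocyte-, endothelial-, pericyte- and progenitor-like nuclei of the subcutaneous library of animal 2, against 0.865% to 2.09% in that of animal 1. Progenitor markers summed to 6701 and 3298 CPM in adipocyte-like nuclei of the intramuscular libraries of animals 1 and 2. In those of the subcutaneous libraries they summed to 9540 and 1887. Adipocyte markers summed to 4026 CPM in progenitor-like nuclei of the intramuscular library of animal 1, and to 928 and 108 in those of the subcutaneous libraries. What part these marker levels have in the results below was not tested.

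Differences between nucleus types were the clearest result. Adipocyte-like nuclei were high in COL18A1 and LAMA4, progenitor-like nuclei in LAMA2, NID1, LAMC1 and LAMA4, and fibre-like nuclei were low in most of the 10. Each type was set against the mean of the other 4 types over the 15 sums, with the library as a term. The quasi-likelihood test of edgeR was used, adjusted by Benjamini-Hochberg over 8180 genes with a threshold of 0.05. The intramuscular library of animal 2 has only its adipocyte-like sum, which the library term fits exactly. That sum thus adds nothing to any comparison of types in this fit, which rests on the sums of the other libraries. In adipocyte-like nuclei 4 of the 10 were higher, where 12.4% of all genes tested were higher. In progenitor-like nuclei 4 of 10 were higher, against 7.36% of all genes. In endothelial-like nuclei 1 of 10 was higher, against 12.8%. In fibre-like nuclei 7 of 10 were lower, against 3.72%, and 1 was higher, against 22.8%. In pericyte-like nuclei 0 of 10 passed, against 3.83%, with 1 of them at an unadjusted p under 0.05 and 0 called by DESeq2.

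**Figure D1:**
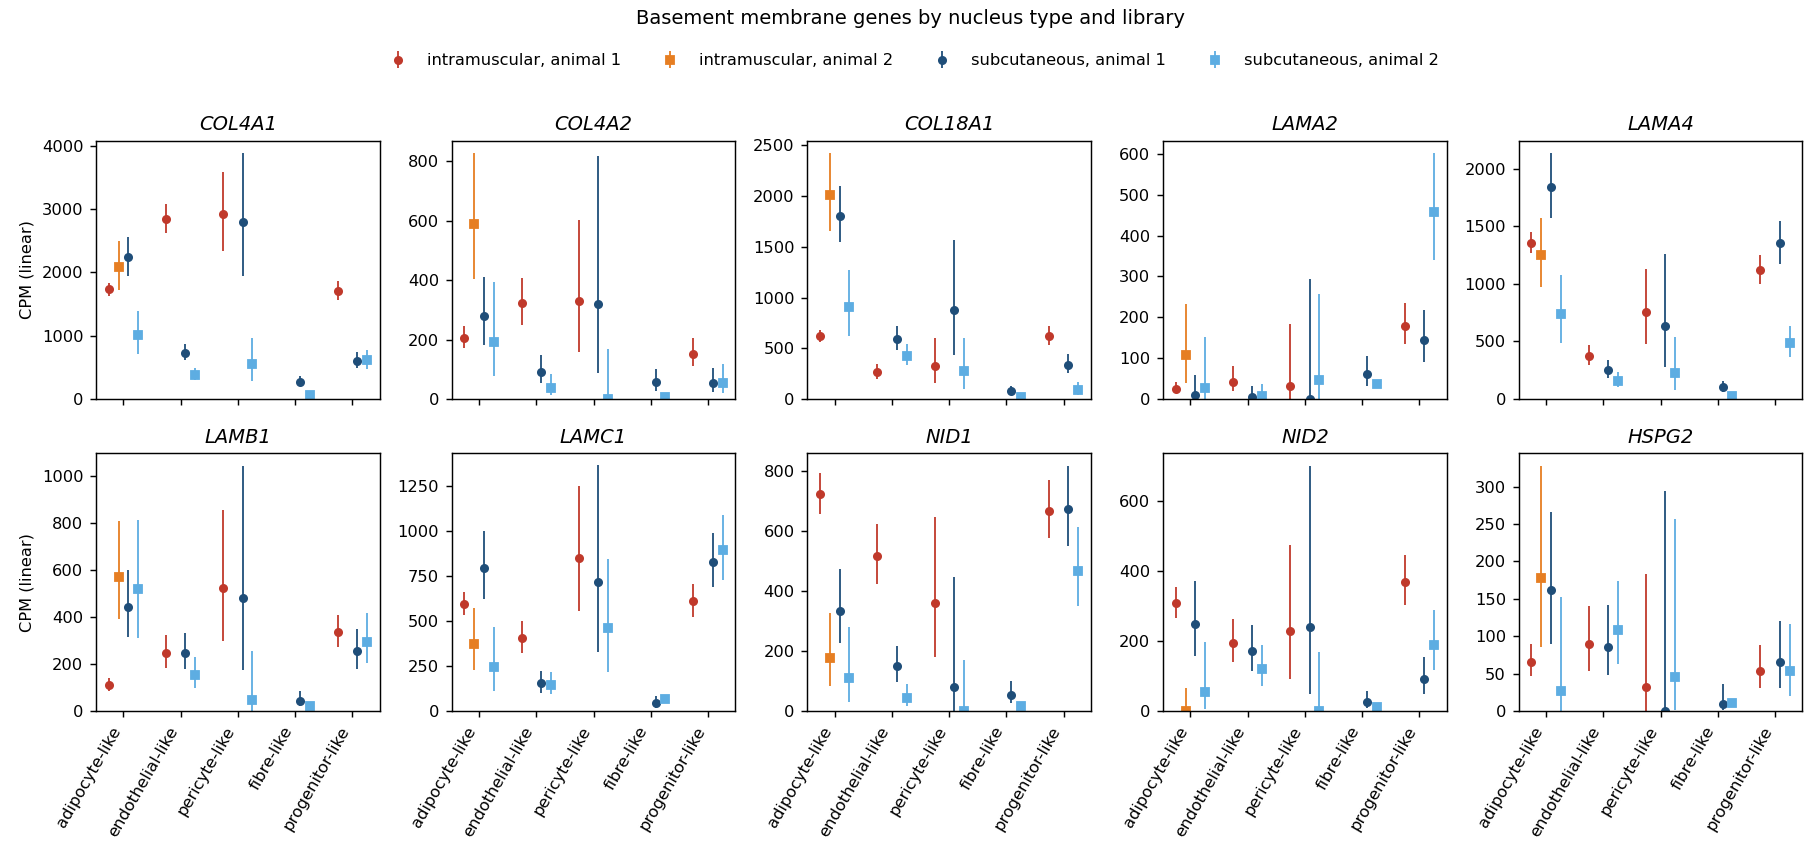
CPM (linear axis from 0) of each gene in 5 nucleus types, 1 point per library, with exact Poisson 95% intervals that cover counting error only. In both subcutaneous libraries COL18A1 is highest in adipocyte-like nuclei, and LAMA2 is highest in progenitor-like nuclei of every library that has them, while fibre-like nuclei are low for every gene but LAMA2.

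The median log2 fold change of the 10 genes was 0.92 in adipocyte-like nuclei, beside 0.11 over all genes tested. It was 0.79 in progenitor-like nuclei beside 0.14, 0.25 in endothelial-like nuclei beside 0.08, and -1.53 in fibre-like nuclei beside 0.39. In pericyte-like nuclei it was -0.42 beside -0.74. The median of all genes in the pericyte comparison moved by 0.53 when DESeq2's size factors replaced TMM scaling, and by -0.30 in the fibre and -0.13 in the progenitor comparison, so values there are read against the median of all genes. With those size factors 161 of 180 genes called in the pericyte comparison were higher, against 126 of 313 with TMM, and 1449 of 2011 in the fibre comparison, against 1865 of 2169.

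**Figure D2:**
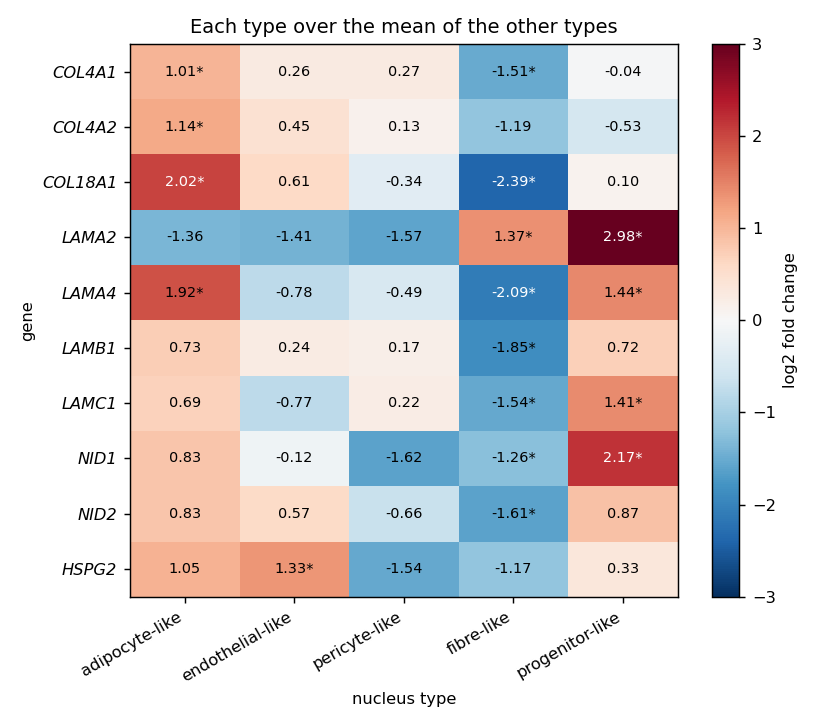
Log2 fold change of each gene in 1 nucleus type over the mean of the other 4 (colour scale from blue, lower, to red, higher), with an asterisk where the adjusted p was under 0.05. The adipocyte-like column is led by COL18A1 (2.02) and LAMA4 (1.92), the progenitor-like column by LAMA2 (2.98) and NID1 (2.17), and LAMA2 is the gene with a positive value in fibre-like nuclei.

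The types were also compared in pairs in the same fit, where any difference counts. Fibre-like nuclei differed in 10 of the 10 genes from adipocyte-like nuclei (26.6% of all genes), in 7 from progenitor-like nuclei (27.6%), in 5 from endothelial-like nuclei (27.5%) and in 2 from pericyte-like nuclei (20.1%). Adipocyte-like nuclei differed in 3 genes from endothelial-like nuclei (24.3%), in 3 from pericyte-like nuclei (11.2%) and in 2 from progenitor-like nuclei (8.89%). Endothelial-like nuclei differed in 4 genes from progenitor-like nuclei (13.5%) and in 0 from pericyte-like nuclei (6.64%), with 2 at an unadjusted p under 0.05. Pericyte-like nuclei differed in 2 from progenitor-like nuclei (4.8%). The median log2 fold change of all genes was 0.64 in adipocyte over pericyte and 0.69 in endothelial over pericyte. It was -0.98 in pericyte over fibre and -0.69 in pericyte over progenitor. Values of these pairs are read beside those medians, and no other scaling was run for pairs.

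COL4A1, a chain of the collagen IV network, was measured in every type. Adipocyte-like nuclei had 1733 (animal 1) and 2086 CPM (animal 2) in the intramuscular libraries, and 2237 and 1012 CPM in the subcutaneous pair. Libraries are given in this order of animals throughout. Pericyte-like nuclei had 2920 in the intramuscular library of animal 1, and 2794 and 552 in the subcutaneous libraries. Endothelial-like nuclei had 2842 in the intramuscular library, and 734 and 384 in the subcutaneous ones. The endothelial-like values overlapped those of adipocyte-like nuclei, and in each of those 3 types the subcutaneous library of animal 2 was the lowest. Progenitor-like nuclei had 1707, 601 and 609.7 CPM in the same order, and fibre-like nuclei 273 and 62.0 in the subcutaneous libraries.

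COL4A1 was higher in adipocyte-like nuclei than in the mean of the other types by 1.01 ± 0.37 (log2, SE; adjusted p = 0.038 by edgeR) and lower in fibre-like nuclei by a log2 fold change of -1.51 ± 0.52 (adjusted p = 0.017). The adipocyte call was lost in 5 of 9 alternatives (adjusted p 0.0060 to 0.31 over the 9), among them without the subcutaneous library of animal 1 (0.81, adjusted p = 0.31) or of animal 2 (0.76, adjusted p = 0.17). The fibre call was lost without the subcutaneous library of animal 2 (-1.26, adjusted p = 0.23). The 9 alternatives here and below include leaving out the intramuscular library of animal 2. That is not an independent check, since the library term fits its only sum exactly. In the order of mean levels over the subcutaneous libraries (pericyte-, adipocyte-, progenitor-, endothelial-, fibre-like), no neighbours differed at the adjusted threshold. Of 10 pairs of types, 1 passed for COL4A1, adipocyte- against fibre-like nuclei. The pericyte over adipocyte value was -0.59 ± 0.51, although pericyte-like nuclei had the higher CPM in both libraries of animal 1. No order of these 2 types is thus given.

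Macrophage-like nuclei, a type that should make little collagen IV, were measured beside them. They had 1625 CPM of COL4A1 in the intramuscular library of animal 1 (18 nuclei, exact Poisson 95% interval 1156 to 2222) and 340.2 in the subcutaneous library of animal 1 (28 nuclei, 163 to 626). In the intramuscular library the endothelial- and pericyte-like levels lay above that interval, and the adipocyte- and progenitor-like levels (1733 and 1707) lay inside it. In the subcutaneous library the adipocyte-, endothelial- and pericyte-like levels lay above it, the endothelial-like one (734) with an interval of its own that overlapped it. How far RNA from other cells made up these levels was not tested. Median UMIs per nucleus were 781 in macrophage-like and 1874 in adipocyte-like nuclei of the intramuscular library.

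COL4A2, the other chain of the common collagen IV protomer, had fewer UMIs. In adipocyte-like nuclei it had 205 and 588 CPM in the intramuscular libraries, and 279.6 and 191 in the subcutaneous ones. In the remaining types it ranged up to 328, in pericyte-like nuclei of the intramuscular library of animal 1, and no UMI was seen in pericyte-like nuclei of the subcutaneous library of animal 2, where a count of 0 allows up to 138 CPM. It was higher in adipocyte-like nuclei by 1.14 ± 0.39 (adjusted p = 0.022, edgeR), a call lost in 5 of 9 alternatives, among them without the subcutaneous library of animal 1 (1.14, adjusted p = 0.16) or of animal 2 (0.60, adjusted p = 0.34). The adjusted p over those alternatives ran between 0.0014 and 0.34. Of 10 pairs of types, 1 passed for COL4A2, again adipocyte- against fibre-like nuclei. In fibre-like nuclei its log2 fold change was -1.19 ± 0.51 (adjusted p = 0.070), and it passed in 4 of 9 alternatives: without the intramuscular library of animal 1 (-1.67, adjusted p = 0.0093), without the subcutaneous library of animal 1 (-2.52, adjusted p = 0.016), with DESeq2's size factors (-1.47, 0.031) and with the stricter gate (-1.47, 0.025).

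COL18A1, the collagen XVIII gene, was higher in adipocyte-like nuclei than in each of the other 4 types. Adipocyte-like nuclei had 619 and 2015 CPM in the intramuscular libraries, and 1807 and 903 CPM in the subcutaneous ones. Endothelial-like nuclei had 265 in the intramuscular library of animal 1, and 591 and 428 in the subcutaneous ones. Progenitor-like nuclei had 619.6, 339.7 and 89.7 in the same order. Adipocyte-like nuclei were thus highest in both subcutaneous libraries and level with progenitor-like nuclei in the intramuscular library of animal 1. Pericyte-like nuclei had 328 in the intramuscular library and 878 and 276 in the subcutaneous ones, and fibre-like nuclei had 76.0 and 21.4.

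The log2 fold change of COL18A1 in adipocyte-like nuclei was 2.02 ± 0.34 (adjusted p = 1.27e-07, edgeR), and it passed in all 9 alternatives run, with adjusted p up to 0.00091. Against single types, adipocyte-like nuclei were higher than endothelial-like (1.13 ± 0.45, adjusted p = 0.047), progenitor-like (1.54 ± 0.46, adjusted p = 0.015), pericyte-like (1.89 ± 0.52, adjusted p = 0.0052) and fibre-like nuclei (3.53 ± 0.58, adjusted p = 9.56e-08). The pericyte value stands beside a median of 0.64 over all genes in that pair. Fibre-like nuclei were lower than the mean of the other types (-2.39 ± 0.52, adjusted p = 4.57e-05), also in all 9 alternatives. Between pericyte-, endothelial- and progenitor-like nuclei, neighbours in the order of subcutaneous means (577, 509.5 and 215), no difference passed. Macrophage-like nuclei had 208 and 238 CPM in the intramuscular and subcutaneous libraries of animal 1, and the adipocyte-like level lay above their interval in both, as did the progenitor-like level in the intramuscular and the endothelial- and pericyte-like levels in the subcutaneous library.

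LAMA4, the laminin alpha 4 chain, was high in adipocyte- and progenitor-like nuclei. Adipocyte-like nuclei had 1358 and 1248 CPM in the intramuscular libraries, and 1839 and 738 in the subcutaneous ones. Progenitor-like nuclei had 1121 in the intramuscular library of animal 1, and 1352 and 484 in the subcutaneous ones. Endothelial-like nuclei had 374, 252 and 159.8 in the same order, below every adipocyte- and progenitor-like value. Pericyte-like nuclei had 754.5, 639 and 229.9, and fibre-like nuclei 101 and 25.7.

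LAMA4 was higher in adipocyte-like nuclei by 1.92 ± 0.34 (adjusted p = 1.01e-06, edgeR) in the main comparison and in all 9 alternatives. It was higher in progenitor-like nuclei by 1.44 ± 0.34 (adjusted p = 0.00074), a call lost without the subcutaneous library of animal 1 (1.33 ± 0.44, adjusted p = 0.057). Adipocyte- and progenitor-like nuclei did not differ at the threshold (0.39 ± 0.45, adjusted p = 0.73), which does not show that they are alike. Endothelial-like nuclei were below adipocyte-like (adipocyte over endothelial 2.16 ± 0.47, adjusted p = 7.43e-05) and progenitor-like nuclei (-1.78 ± 0.47, adjusted p = 0.0022). Fibre-like nuclei were lower than the mean of the other types (-2.09 ± 0.52, adjusted p = 0.00043), in all 9 alternatives. The endothelial-like level in the intramuscular library of animal 1 (374) lay inside the interval of macrophage-like nuclei there (584, exact Poisson 95% interval 319 to 979), while in the subcutaneous library of animal 1 it was 252, against 68.0 (8.24 to 246) in macrophage-like nuclei.

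LAMA2, the laminin alpha 2 chain, had another pattern from the rest. Progenitor-like nuclei had 179.5 CPM (53 UMIs) in the intramuscular library of animal 1, and 144 and 457 CPM in the subcutaneous ones. Fibre-like nuclei had 60.8 and 36.6 in the subcutaneous libraries. Adipocyte-like nuclei had 24.6 and 107 in the intramuscular libraries, and 10.8 and 27.4 in the subcutaneous ones. Progenitor-like values were above those of every other of the 5 types, and adipocyte-like values below fibre-like values in the subcutaneous libraries. Endothelial-like nuclei had 42.6, 5.74 and 6.39 CPM, and pericyte-like nuclei 1, 0 and 1 UMIs in all.

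The log2 fold change of LAMA2 in progenitor-like nuclei was 2.98 ± 0.38 (adjusted p = 1.60e-12, edgeR), the largest among the 10 genes in any of the 5 type comparisons, and it passed in all 9 alternatives (adjusted p up to 0.00023). Progenitor-like nuclei were higher than each of the other types, with a fibre over progenitor value of -1.29 ± 0.51 (adjusted p = 0.041), adipocyte over progenitor of -3.47 ± 0.56 (adjusted p = 8.50e-08), endothelial over progenitor of -3.51 ± 0.53 (adjusted p = 4.29e-09) and pericyte over progenitor of -3.64 ± 0.82 (adjusted p = 0.00083). The last of these stands beside a median of -0.69 over all genes in that pair. In fibre-like nuclei LAMA2 was higher than the mean of the other types by 1.37 ± 0.53 (adjusted p = 0.038), beside 0.39 for the median of all genes. That call was lost in 8 of 9 alternatives (adjusted p 0.032 to 0.90), in each case that left out a library; without the subcutaneous library of animal 1 the value was 0.20 ± 0.66 (adjusted p = 0.90), without that of animal 2 it was 2.18 ± 0.82 (0.060), without the intramuscular library of animal 1 it was 1.26 (0.12), and without that of animal 2 it was 1.25 (0.077). Fibre-like nuclei were higher than adipocyte-like (adipocyte over fibre -2.18 ± 0.68, adjusted p = 0.0081) and endothelial-like nuclei (endothelial over fibre -2.22 ± 0.64, adjusted p = 0.0034).

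Of the LAMA2 UMIs of the subcutaneous library of animal 2, 51.1% came from fibre-like and 22.1% from progenitor-like nuclei, while in the subcutaneous library of animal 1 these shares were 20.3% and 37.3%. Satellite-like nuclei (marked by muscle stem cell genes such as PAX7) reached 10 in 1 library, the subcutaneous one of animal 2, where 11 of them had 8 LAMA2 UMIs, or 776 CPM (exact Poisson 95% interval 335 to 1528). With 1 library this value has no test. In macrophage-like nuclei LAMA2 had 1 and 3 UMIs in the intramuscular and subcutaneous libraries of animal 1 (41.7 and 102 CPM), and at these counts their intervals overlapped that of progenitor-like nuclei.

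LAMB1 and LAMC1 are the beta and gamma chains of the set. LAMB1 in adipocyte-like nuclei had 113 and 570.5 CPM in the intramuscular libraries, and 441 and 519.7 in the subcutaneous ones. Progenitor-like nuclei had 335, 255 and 296, endothelial-like nuclei 246, 247 and 153, and pericyte-like nuclei 525, 479 and 46.0, each in the order intramuscular animal 1, subcutaneous animal 1 and subcutaneous animal 2. Fibre-like nuclei had 45.6 and 24.5 in the subcutaneous libraries, below all of these. Their LAMB1 was lower by a log2 fold change of -1.85 ± 0.47 (adjusted p = 0.00069, edgeR), in all 9 alternatives, and no other type passed for this gene in the main comparison. In adipocyte-like nuclei it was 0.73 ± 0.36 (adjusted p = 0.14) and passed without the intramuscular library of animal 1 (1.62 ± 0.42, adjusted p = 0.0020), whose adipocyte-like value was the lowest of the 4.

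LAMC1 in progenitor-like nuclei had 609.5 CPM in the intramuscular library of animal 1, and 829.7 and 897 in the subcutaneous libraries. Adipocyte-like nuclei had 596 and 374 in the intramuscular libraries, and 796 and 246 in the subcutaneous ones. Endothelial-like nuclei had 407, 155 and 147 in the order just given for progenitor-like nuclei, below them in each library. Pericyte-like nuclei had 853, 718 and 459.8, and fibre-like nuclei 45.6 and 66.3. LAMC1 was higher in progenitor-like nuclei by 1.41 ± 0.32 (adjusted p = 0.00042, edgeR), in all 9 alternatives, and lower in fibre-like nuclei, at -1.54 ± 0.48 (adjusted p = 0.0064), a call lost without the subcutaneous library of animal 1 (-1.45, adjusted p = 0.14). Endothelial-like nuclei were lower than progenitor-like (-1.75 ± 0.45, adjusted p = 0.0016), and adipocyte-like nuclei were higher than endothelial-like (1.17 ± 0.45, adjusted p = 0.040). In adipocyte-like nuclei against the mean of the other types it was 0.69 ± 0.36 (adjusted p = 0.16), and it passed without the subcutaneous library of animal 2 (1.09, adjusted p = 0.033). Macrophage-like nuclei of the intramuscular library of animal 1 had 584 CPM of LAMC1, close to the adipocyte- and progenitor-like levels there. Those of the subcutaneous library of animal 1 had none, which allows up to 102, and the adipocyte-, endothelial-, pericyte- and progenitor-like levels there were above that.

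NID1, the nidogen that binds the laminin gamma 1 chain and collagen IV, was high in progenitor-like nuclei. They had 667 CPM in the intramuscular library of animal 1, and 673 and 466 in the subcutaneous libraries. Adipocyte-like nuclei had 723 and 178 in the intramuscular libraries, and 333 and 109 in the subcutaneous ones. Endothelial-like nuclei had 516, 149 and 44.7, pericyte-like nuclei 361, 79.8 and 0, and fibre-like nuclei 55.7 and 16.1. Progenitor-like nuclei were highest in both subcutaneous libraries, and second to adipocyte-like nuclei in the intramuscular library of animal 1.

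NID1 was higher in progenitor-like nuclei by 2.17 ± 0.34 (adjusted p = 1.53e-08, edgeR), in all 9 alternatives with adjusted p up to 0.0033. Endothelial-like (-1.83 ± 0.45, adjusted p = 0.00082), pericyte-like (-3.03 ± 0.60, adjusted p = 6.11e-05) and fibre-like nuclei (-2.74 ± 0.53, adjusted p = 6.72e-06) were each lower than progenitor-like nuclei, and the adipocyte over progenitor value was -1.07 ± 0.45 (adjusted p = 0.14). The median of all genes in the pericyte over progenitor pair was -0.69. In fibre-like nuclei against the mean of the other types NID1 was lower (-1.26 ± 0.50, adjusted p = 0.044), a call lost in 5 of 9 alternatives. It was lost without the intramuscular library of animal 1 (-1.36, adjusted p = 0.12), without the subcutaneous library of animal 1 (-1.83, 0.074), and with that of animal 2 left out (-1.32, 0.26). Macrophage-like nuclei had 375 CPM of NID1 (exact Poisson 95% interval 171.5 to 712) in the intramuscular library of animal 1, an interval that holds the progenitor-like 667 there. In the subcutaneous library of animal 1 they had 68.0 (8.24 to 246), and the progenitor-like (673) and adipocyte-like (333) levels were above that interval.

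NID2, the second nidogen, showed no such peak. Over all types but the fibre-like it ranged between 0 and 369 CPM, and the order of its subcutaneous means had adipocyte-, endothelial-, progenitor- and pericyte-like nuclei within 119.7 to 151 and fibre-like nuclei at 19.2. Fibre-like nuclei had 25.3 and 13.02 CPM in the 2 subcutaneous libraries and were lower than the mean of the other types (-1.61 ± 0.50, adjusted p = 0.0062, edgeR), a call lost without the subcutaneous library of animal 2 (-1.75, adjusted p = 0.16). The other 4 types did not pass for NID2. In adipocyte-like nuclei of the intramuscular library of animal 2 no NID2 UMI was seen, and a count of 0 allows up to 53.5 CPM there.

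HSPG2, the perlecan gene, was thinly counted, with 1 to 40 UMIs in a sum other than 0. Endothelial-like nuclei had 90.0 CPM in the intramuscular library of animal 1, and 86.0 and 109 in the subcutaneous libraries. Adipocyte-like nuclei had 65.5 and 178 in the intramuscular libraries, and 161 and 27.4 in the subcutaneous ones. Progenitor-like nuclei had 54.2, 65.3 and 53.8, and fibre-like nuclei 10.1 and 10.5. HSPG2 was higher in endothelial-like nuclei by 1.33 ± 0.44 (adjusted p = 0.018, edgeR), a call that held in 5 of 9 alternatives with the adjusted p between 0.014 and 0.11. It was lost without the intramuscular library of animal 1 (1.35, adjusted p = 0.087), without the subcutaneous library of animal 1 (1.49, 0.056), and with that of animal 2 left out (1.42, 0.098). Endothelial-like and adipocyte-like nuclei, its neighbours at the top of the order, did not differ at the threshold (0.22 ± 0.50, adjusted p = 0.80).

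The share that 1 gene of a pair takes of the pair's UMIs does not depend on library scaling, and it is compared here between types only, since the UMIs are not divided by transcript length. LAMA2 made 37.5% and 58.7% of LAMA2 plus LAMA4 UMIs in fibre-like nuclei of the subcutaneous libraries of animals 1 and 2. In progenitor-like nuclei it made 13.8% in the intramuscular library of animal 1, and 9.61% and 48.6% in the subcutaneous ones. In adipocyte-like nuclei it made 1.78% and 7.89% in the intramuscular libraries, and 0.581% and 3.57% in the subcutaneous ones. The share was higher in fibre-like than in progenitor-like nuclei in both libraries that hold them, and higher in progenitor- than in adipocyte-like nuclei in each of 3 libraries. Mean shares over those 3 libraries were 1.98% in adipocyte-like and 24.0% in progenitor-like nuclei, with a mean difference of -22.0 ± 20.0 percentage points (SD, n = 3; exact two-sided sign-flip permutation p = 0.25, the smallest 3 libraries allow, Benjamini-Hochberg p = 0.63 over 15 comparisons).

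**Figure D3:**
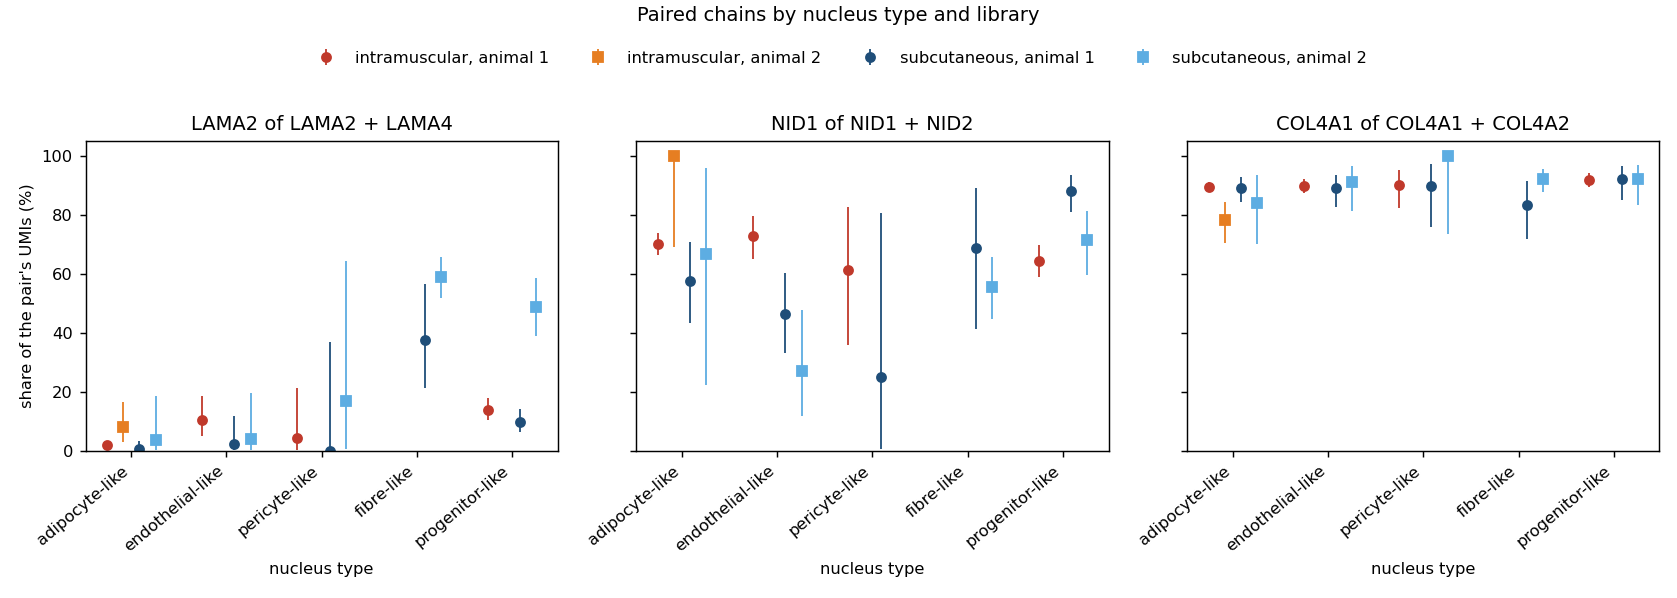
Share (%) of a pair's UMIs held by LAMA2, NID1 or COL4A1 in each nucleus type, 1 point per library with exact Clopper-Pearson 95% intervals. The LAMA2 share is highest in fibre-like nuclei (37.5% and 58.7%), the NID1 share spreads widely between libraries, and the COL4A1 share lies between 78.0% and 100% throughout.

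NID1 made 64.4% of NID1 plus NID2 UMIs in progenitor-like nuclei of the intramuscular library of animal 1, and 88.0% and 71.2% in those of the subcutaneous libraries. In endothelial-like nuclei it made 72.7%, and 46.4% and 26.9%. The progenitor-like share was above the endothelial-like share in both subcutaneous libraries and below it in the intramuscular one, and the mean difference was 25.9 ± 29.6 percentage points (SD, n = 3; exact two-sided permutation p = 0.50). COL4A1 made 89.4% and 78.0% of COL4A1 plus COL4A2 UMIs in adipocyte-like nuclei of the intramuscular libraries, and 88.9% and 84.1% in those of the subcutaneous ones. In progenitor-like nuclei it made 91.8%, 92.0% and 91.9%. The largest mean difference in this share among 5 comparisons of types was adipocyte minus progenitor, with -4.43 ± 2.95 points (n = 3; exact p = 0.25). COL4A1 and COL4A2 are neighbours in the RefSeq gene table of ARS-UCD2.0, with no overlap listed.

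Over the 15 sums of library and type, the log2(CPM + 1) values of several members rose and fell together. Pearson's r was 0.82 between COL4A1 and LAMA4, 0.82 between LAMA4 and LAMC1, 0.80 between COL4A2 and NID1, and 0.79 between COL18A1 and LAMA4. COL4A2 and NID1 both had 0 UMIs in pericyte-like nuclei of the subcutaneous library of animal 2. There a count of 0 allows up to 138 CPM, and the r of this pair takes both as 0. LAMA2 and HSPG2 had lower values, with r between -0.33 (COL18A1) and 0.42 (HSPG2) for LAMA2 to the other 9, and between -0.079 (NID2) and 0.42 (LAMA2) for HSPG2. These are descriptions of 15 points that share 4 libraries and differ in depth. How far RNA from other cells enters them was not tested. By the same measure, among 4245 genes of at least 50 CPM on average, the gene most like LAMA4 was LRP1, a large endocytic receptor (r = 0.96), followed by COL5A2, a fibrillar collagen chain (0.95). The gene most like LAMA2 was LVRN (0.88), followed by TGFB2, a growth factor of the TGF-beta family (0.84). COL18A1 was most like SETD5 (0.93) and TNS1 (0.91), COL4A1 most like GABBR1 (0.91), and HSPG2 most like BEND7 (0.97). The pericyte-like sums held 1, 0 and 1 UMIs of HSPG2, so its r values take in counts at or near 0.

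Other basement membrane genes were counted from 4 lists. Their counts stand beside the shares of all 8180 genes tested, of which 12.4% were higher and 7.87% lower in adipocyte-like nuclei, 12.8% and 3.41% in endothelial-like, 1.54% and 2.29% in pericyte-like, 22.8% and 3.72% in fibre-like, and 7.36% and 0.562% in progenitor-like nuclei. Of 18 other basement membrane chains, 8 were tested between types. In adipocyte-like nuclei 3 of these 8 were higher (12.4% of all genes): SMOC1, a calcium-binding matrix protein (3.22 ± 0.37, adjusted p = 1.91e-15), COL15A1, the collagen closest to COL18A1 (2.44 ± 0.35, adjusted p = 4.14e-10), and TINAGL1 (1.22 ± 0.36). AGRN, agrin, the 1 that was lower there (7.87% of all genes), had -2.25 ± 0.67. COL15A1 was also higher in progenitor-like nuclei (1.32 ± 0.35, adjusted p = 0.0031) and lower in fibre-like nuclei (-1.93 ± 0.51). COL18A1 in progenitor-like nuclei was 0.10 ± 0.38 (adjusted p = 0.93). TINAGL1 and NTN4, a laminin-binding netrin, were higher in endothelial-like nuclei (1.55 ± 0.34 and 2.19 ± 0.53) and lower in fibre-like nuclei (-1.28 ± 0.50 and -2.05 ± 0.82). In pericyte-like nuclei SMOC1 was lower (-2.56 ± 0.71).

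Of 16 receptors, 14 were tested, and endothelial-like nuclei had the most that passed, with 6 higher (12.8% of all genes) and 2 lower (3.41%). The higher ones included ITGB4, the integrin beta 4 chain (5.12 ± 0.71, adjusted p = 3.59e-11), ITGA1, a collagen-binding integrin chain (3.23 ± 0.40), ITGA6, a laminin-binding one (3.20 ± 0.34), and BCAM, a receptor of laminin alpha 5 (2.55 ± 0.31). ITGA7, the laminin-binding integrin chain of muscle, was lower there (-1.81 ± 0.41), and higher in fibre-like (1.32 ± 0.39, adjusted p = 0.0036) and pericyte-like nuclei (1.75 ± 0.39, adjusted p = 0.0010). Of the receptors, 2 were higher and 2 lower in each of adipocyte- and progenitor-like nuclei. Of the collagen receptors, DDR1 was higher in adipocyte-like (1.96 ± 0.40, adjusted p = 2.11e-05) and DDR2 in progenitor-like nuclei (2.76 ± 0.38, adjusted p = 5.07e-11).

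Of 12 genes of collagen IV assembly, 11 were tested, and in progenitor-like nuclei 5 were higher (7.36% of all genes) and none lower (0.562%). They were PLOD2, a lysyl hydroxylase (2.14 ± 0.36, adjusted p = 1.40e-07), LOXL1 (3.17 ± 0.70), PXDN, the peroxidase that makes the sulfilimine bonds of collagen IV (1.19 ± 0.36), P4HA2 (1.13 ± 0.34) and SERPINH1, the collagen chaperone (1.04 ± 0.33). In adipocyte-like nuclei 3 of the 11 were higher (12.4% of all genes) and 1 lower (7.87%). The higher ones were PXDN (1.97 ± 0.36, adjusted p = 1.71e-06), PLOD2 (1.595 ± 0.41) and LOXL1 (2.40 ± 0.87), and LOXL2 was lower (-4.72 ± 0.99). Among 8 genes of matrix breakdown and its inhibitors, 6 were tested. In endothelial-like nuclei 4 were higher (12.8% of all genes). In progenitor-like nuclei 3 were higher (7.36%) and 1 lower (0.562%). In adipocyte-like nuclei 1 was higher (12.4%) and 3 lower (7.87%). In fibre-like nuclei 4 were lower (3.72%): ADAMTS1, TIMP3, MMP14 and TIMP4. MMP2 and MMP14, gelatinase A and its activator, were higher in progenitor-like nuclei (2.61 ± 0.34 and 2.25 ± 0.36), and MMP2 also in endothelial-like nuclei (1.26 ± 0.38). In adipocyte-like nuclei MMP14 was higher (1.325 ± 0.42) and MMP2 lower (-2.09 ± 0.54). ADAMTS1 and the inhibitor TIMP3 were higher in endothelial-like (2.57 ± 0.32 and 2.13 ± 0.31) and pericyte-like nuclei (2.72 ± 0.35 and 1.30 ± 0.41). Of the other inhibitors, TIMP2 was higher in progenitor-like nuclei (1.305 ± 0.33). TIMP4 was lower there (-1.72 ± 0.47) and higher in endothelial-like nuclei (1.85 ± 0.35). Adjusted p-values are from the same edgeR fit.

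Between depots, the 10 genes were first compared over all nuclei of a library. Here fewer nuclei of a type and less RNA per nucleus cannot be told apart. COL4A1 had 2014 and 2190 CPM in the intramuscular libraries of animals 1 and 2, against 1137 and 149.7 in the subcutaneous ones. The sum of the 10 genes was 5687 and 7537 in the intramuscular libraries, against 4168 and 645 in the subcutaneous ones. In CPM, COL4A1, COL4A2, LAMA2 and LAMA4 were higher in both intramuscular libraries than in either subcutaneous one, and the other 6 genes overlapped between depots. The share of all genes that separate in this way was not computed, so this is not read as a depot result of these genes. The sum of the 10 genes differed mostly in animal 2: its intramuscular over subcutaneous ratio was 1.36 in animal 1 and 11.7 in animal 2, whose subcutaneous library is the one with 20.0% fibre marker UMIs.

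**Figure D4:**
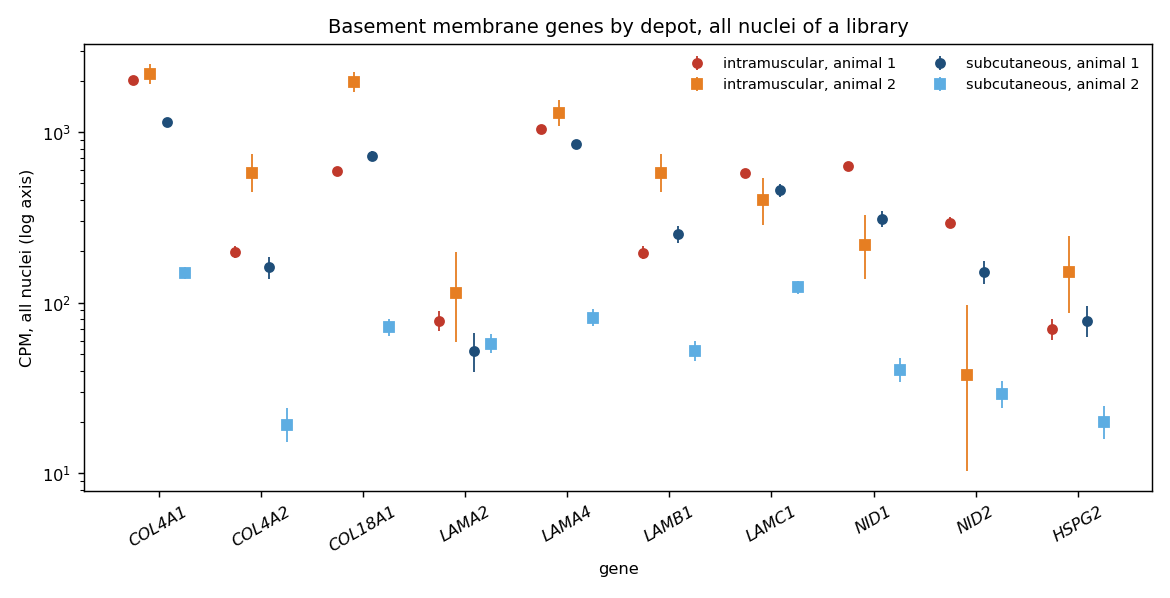
CPM of each gene over all nuclei (log axis), 1 point per library, intramuscular left of subcutaneous, with exact Poisson 95% intervals. The subcutaneous library of animal 2 is the lowest for every gene but LAMA2, while that of animal 1 lies among or close to the intramuscular libraries.

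By edgeR's quasi-likelihood test on 2 libraries per depot, 0 of the 10 genes passed, where 1.53% of 11143 genes did. None of the 10 had an unadjusted p under 0.05, and DESeq2 called 0. Of the 10 log2 fold changes, 9 were positive, with a median of 0.93 beside -0.16 over all genes. COL4A2 had the largest (1.71 ± 1.03, adjusted p = 0.60), ahead of COL4A1 (1.37 ± 1.51, adjusted p = 0.81) and COL18A1 (1.32 ± 1.37, adjusted p = 0.79), and LAMA2 had -0.15 ± 0.82. LAMA2 thus has opposite signs here and in CPM, where it had 78.4 and 114 in the intramuscular libraries, against 51.8 and 57.6 in the subcutaneous ones. With library totals in place of TMM scaling, an alternative added after seeing the data, LAMA2 was 0.78 ± 1.09, all 10 values were positive with a median of 1.31, the median of all genes was 0.42 and 0 of the 10 passed. The 2 scalings thus set the median of all genes 0.58 apart, and no direction is given for LAMA2. The SE ran between 0.79 (HSPG2) and 1.51 (COL4A1), so differences of the size of 1 log2 unit were not detectable with these libraries. With fibre-like nuclei left out, the 10 values lay between -0.28 and 1.45, with a median of 0.68, and 0 passed.

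Inside adipocyte-like nuclei, with 2 libraries per depot, 9 of the 10 genes could be tested and 0 passed, as did 0% of 1705 genes. None of the 9 had an unadjusted p under 0.05, 54 of all genes did, and DESeq2 called 0 of the 9. With the animal as a block 25 genes passed, 0 of them among the 9. COL18A1 had 619 and 2015 CPM in intramuscular adipocyte-like nuclei, against 1807 and 903 in subcutaneous ones, with overlapping depots and a log2 fold change of -0.12 ± 1.00. LAMA4 had 1358 and 1248, against 1839 and 738 (0.0034 ± 0.95). NID1 had the largest value, with 1.04 ± 0.93 (adjusted p = 1.00).

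Inside endothelial-like nuclei 1 intramuscular library stood against 2 subcutaneous ones, so its spread is assumed to be that of the subcutaneous pair. COL4A1 had 2842 CPM in the intramuscular library, against 734 and 384 in the subcutaneous ones, a log2 fold change of 2.42 ± 0.60. COL4A2 had 322, against 91.8 and 38.4 (2.36 ± 0.55). NID1 had 516, against 149 and 44.7 (2.48 ± 0.61). All of these intramuscular values stood above both subcutaneous ones, as did those of LAMA2, LAMA4, LAMC1 and NID2. The share of all genes that stood so was not computed, so this is not read as a depot result of these genes. Of 9 genes tested 0 passed, where 2.68% of 4890 genes did, 4 had an unadjusted p under 0.05, the fourth being LAMC1 (1.49 ± 0.47, adjusted p = 0.17), and DESeq2 called 0. Whether COL4A1, COL4A2 and NID1 passed depended on the processing, and so did the number of all genes that passed. Their log2 fold changes were 2.34, 2.28 and 2.39 with library totals in place of TMM. With DESeq2's size factors they were 2.44, 2.37 and 2.50.

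In macrophage-like nuclei COL4A1 was 1625 CPM in the intramuscular library of animal 1 (18 nuclei) and 340.2 in the subcutaneous library of animal 1 (28 nuclei). NID1 was 375 and 68.0 there. These differ in the same direction as the endothelial-like values. Marker lists of other types also moved with the depot inside endothelial-like nuclei. The 12 adipocyte markers summed to 2871 CPM in the intramuscular library, against 608 and 115 in the subcutaneous ones, with UMIs of 12, against 12 and 9, of them. The 15 progenitor markers summed to 4169, against 2460 and 767, and the 23 fibre markers to 18.9, against 11435 and 68416. Their part in the depot values was not tested. COL18A1 went the other way in endothelial-like nuclei, with 265 in the intramuscular library, against 591 and 428 in the subcutaneous ones (-0.87 ± 0.52, adjusted p = 0.54).

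**Figure D5:**
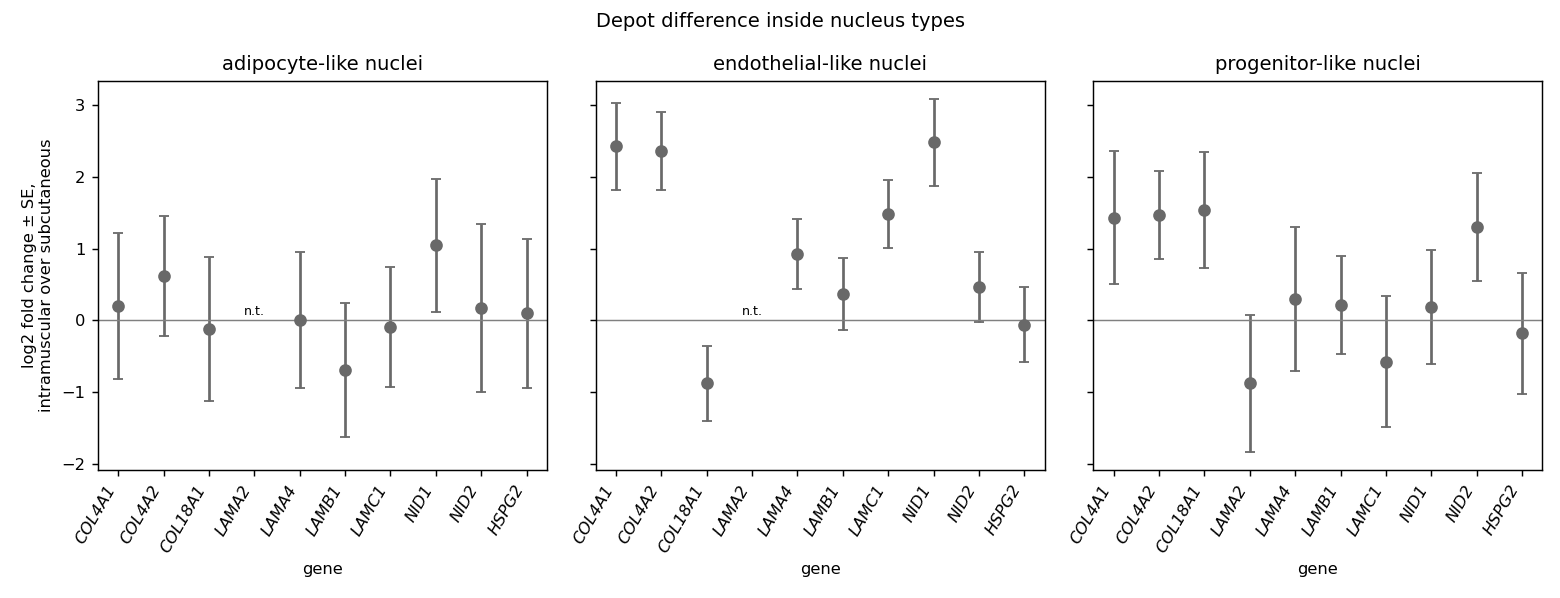
Log2 fold change of intramuscular over subcutaneous with its SE inside adipocyte-like (2 against 2 libraries), endothelial-like and progenitor-like nuclei (1 against 2 each); n.t. marks LAMA2 where it was not tested. COL4A1, COL4A2 and NID1 lie at 2.36 to 2.48 in endothelial-like nuclei, and no gene passed the adjusted threshold in any of the 3 panels.

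Inside progenitor-like nuclei, also 1 against 2 libraries, 0 of 10 passed, as did 0% of 4673 genes, 1 of the 10 had an unadjusted p under 0.05, and DESeq2 called 0. COL18A1 had 619.6 CPM in the intramuscular library, against 339.7 and 89.7 in the subcutaneous ones (1.54 ± 0.81), and LAMA2 had 179.5, against 144 and 457 (-0.88 ± 0.96). The adipocyte markers in these nuclei summed to 4026 CPM, against 928 and 108, and the fibre markers to 60.9, against 14596 and 120871, and their part in these values was not tested. Inside pericyte-like nuclei 5 of the 10 genes could be tested and 0 passed, where 2.26% of 574 genes did, with none at an unadjusted p under 0.05 and 0 called by DESeq2. Whether the depot difference itself differed between types was tested by edgeR in 1 fit over adipocyte-, endothelial- and progenitor-like sums. None of the 10 passed in any of the 3 pairs of types, where 0% of 6910 genes did, and 1 had an unadjusted p under 0.05, LAMA2 in endothelial minus progenitor (3.60 ± 1.55, adjusted p = 1.00). None of the genes in the other basement membrane lists passed in a depot comparison by edgeR.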

How the data were processed

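The files are raw UMI counts per gene and barcode, 1 filtered matrix per library, made by the authors with Cell Ranger 6.0.1 per the file headers; the submitters' processing notes name the build ARS-UCD1.2. Whether intronic or strand-specific reads were counted is not given in the sources used here. Of the 21861 features, 4251 have no gene name. No overlapping gene of the 10 has a name in the tables.

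Nuclei with at least 200 genes and under 10% mitochondrial UMIs were kept. Each nucleus was assigned to a type where UMIs of that type's marker list, from at least 2 of its genes, exceeded a Poisson expectation (p under 0.01) at the list's share in its library, or its mean share over the 4 libraries where lower. A nucleus with a second type at p under 0.05 was called mixed and left out, except that fibre markers did not make it so, and fibre-like nuclei had no other type. This also served against doublets, and no doublet caller was run. The gate was set without the 10 genes' values. The names end in "-like", and differences from the study's own cell types may come from this.

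UMIs were summed per library, or per library and type with at least 10 nuclei, since nuclei are not replicates. Sums were tested with edgeR 4.0.16 (filterByExpr, TMM, quasi-likelihood F test) in R 4.3.3, with Benjamini-Hochberg adjustment over all genes tested and a threshold of 0.05. The SE is the absolute log2 fold change over the square root of F. Levels are CPM of the sum. DESeq2 1.42.0 was an alternative. The fits were tested on simulated data. Of genes given a 4-fold depot change, 0.513% were called over all nuclei and 0% in adipocyte-like nuclei. For an 8-fold change these were 12.2% and 33.5%. In the type comparisons a 4-fold change was called in 16.6% (pericyte-like) to 71.2% (progenitor-like). A depot comparison in which 0 passed thus does not show that the depots are alike. Poisson and Clopper-Pearson 95% intervals, and the 3 counts that a count of 0 allows, cover counting error only, and depth per sum ran from 12529 to 3225842 UMIs.

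Libraries of the same number come from the same animal per the labels; deviations from the depot means correlated at -0.19 over 4233 genes, and the animal as a block was an alternative. With 2 animals, p-values of the depot tests measure the spread between these libraries. Those of the type tests measure the spread of the sums that remains after the library and type terms. They take the sums of 1 library as independent. The members, the other basement membrane lists and the markers were chosen with earlier results of these data known. All 10 members are described; other genes are named where they are on a list and passed, or by likeness, the highest Pearson r of log2(CPM + 1). Coordinates and sequences are not used here.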

Additional observations from a re-analysis of the deposited data

How the results depend on the processing

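Of 1085 values recomputed under the alternatives, 925 kept their direction and side of the threshold (or stayed within 1.5 times for a count). Some of these could not change. The intramuscular library of animal 2 has no endothelial-, pericyte- or progenitor-like sum. Leaving it out thus repeats the same fit inside those types and the same paired shares. In the comparisons between types the library term fits its only sum exactly. Leaving that library out can act there through filtering, scaling and dispersion only, and is not an independent check. No alternatives were run for single pairs of types or for differences of depot effects. Leaving out a library was not possible inside endothelial-, pericyte- and progenitor-like nuclei where it left no residual degrees of freedom or a depot without a library, and the replicate block could be fitted for all nuclei and adipocyte-like nuclei only. The cause of the changes below was not tested. Of the sums tested between types, the pericyte-like ones had the fewest UMIs.

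With the animal as replicate block, depot calls in adipocyte-like nuclei numbered 25 genes, LAMA2 over all nuclei was 0.053, and in adipocyte-like nuclei NID2 was -0.28 and HSPG2 -0.042; the block changed no other call. Since the labelled pairs correlated negatively, the crossed pairing was added after seeing the data: as replicate block it called 589 genes over all nuclei and 26 in adipocyte-like nuclei.

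With the DESeq2 test, depot calls were 348 genes over all nuclei, 31 in adipocyte-, 64 in endothelial-, 29 in pericyte- and 73 in progenitor-like nuclei. Type calls were 2 members in adipocyte- and 2 in endothelial-like nuclei, and 197 genes in pericyte-like nuclei. In the adipocyte and endothelial comparisons the number of all genes called stayed within 1.5 times the main one. Values that changed sign were LAMA4 between depots in adipocyte-like nuclei (-0.058), COL18A1 and LAMA4 in the pericyte comparison (0.21 and 0.089) and COL18A1 in the progenitor comparison (-0.067). With DESeq2's size factors in edgeR these 4 values were -0.050, 0.21, 0.043 and -0.035, depot calls in endothelial-like nuclei were 249 genes and 3 members, and the pericyte comparison called 180 genes.

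With library totals in place of TMM, added after seeing the data, depot calls were 26 genes in adipocyte-, 331 in endothelial- (128 higher, against 65 of 131 with TMM; 3 members), 1 in pericyte- (1 higher, against 2 of 13) and 145 in progenitor-like nuclei. LAMA2 over all nuclei was then 0.78 and LAMA4 in adipocyte-like nuclei -0.021. The median of all genes moved by 0.58 over all nuclei and 0.27 in pericyte-like nuclei.

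With no count filter, depot calls were 444 genes over all nuclei, 90 in adipocyte-, 443 in endothelial- (3 members), 0 in pericyte- and 199 in progenitor-like nuclei, LAMC1 between depots in adipocyte-like nuclei was 0.062, and the adipocyte comparison called 2 members. Without fibre-like nuclei, 0 genes passed between depots over all nuclei. With nuclei of at least 500 genes, depot calls were 15 genes in endothelial- and 147 in progenitor-like nuclei. The adipocyte comparison then called 2 members and the endothelial one 0, and the pericyte and fibre comparisons called 101 and 1235 genes. The number of all genes called in the adipocyte comparison stayed within 1.5 times the main one here and with no count filter. For the endothelial comparison it also did so here. Signs changed for LAMA4 and NID2 between depots in adipocyte-like nuclei (-0.046 and -0.17), LAMB1 between depots in progenitor-like nuclei (-0.11), NID1 in the endothelial (0.033), NID2 in the pericyte (0.22) and COL4A1 in the progenitor comparison (0.058), and the LAMA2 share, adipocyte minus endothelial (0.359 points). With the stricter gate, LAMA4 between depots in adipocyte-like nuclei was -0.066, and the pericyte comparison called 206 genes. COL4A1 and HSPG2 between depots in endothelial-like nuclei were then 2.43 and 0.021.

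Without each library in turn, depot calls over all nuclei ranged over 24 to 411 genes (24 without the intramuscular library of animal 1), and depot values over all nuclei ran from -0.54 to 0.72 for LAMA2, -0.12 to 0.78 for LAMC1, -0.12 to 2.23 for NID1 and -1.75 to 1.52 for NID2. In adipocyte-like nuclei depot calls ran from 0 to 76 genes, and values from -0.18 to 0.63 for COL4A1, -0.11 to 0.97 for COL4A2, -1.01 to 0.27 for COL18A1, -0.42 to 0.56 for LAMA4, -0.75 to 0.77 for LAMC1, -0.62 to 1.91 for NID1, and -6.42 to 1.50 for NID2. HSPG2 passed the count filter in 2 of these 4 fits, without the intramuscular or the subcutaneous library of animal 2, with -0.53 and -0.49.

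Without each library in turn, type calls ran from 600 to 1538 genes and 2 to 5 members in adipocyte-, 669 to 1115 genes and 0 to 1 member in endothelial-, 70 to 193 genes in pericyte-, 839 to 1877 genes and 4 to 7 members in fibre-, and 243 to 502 genes in progenitor-like nuclei. Values ran from -0.20 to 0.67 for COL4A1, -0.10 to 0.97 for COL4A2 and -0.26 to 0.072 for NID1 in the endothelial comparison, from -0.15 to 0.24 for COL18A1 and -0.35 to 0.91 for LAMB1 in the pericyte comparison, and from -0.50 to 0.37 for COL4A1, -0.99 to 0.012 for COL4A2 and -0.91 to 0.51 for COL18A1 in the progenitor comparison. Shares ran from -17.6 to 0.583 points for NID1, adipocyte minus progenitor, and for COL4A1 from -5.81 to 1.26 (fibre minus endothelial) and -8.92 to 0.274 (fibre minus progenitor).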
